A study of Mus musculus with 6 samples.

Results

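The 94 genes described here are the expressed solute carriers of a mouse bone marrow culture. They are the rows of the deposited gene table whose symbol starts with Slc and a digit and whose level was at least 10 RPKM (read density per exon length, scaled to library size) in both libraries of at least 1 of the 3 days sampled. Of the 21761 genes in the table, 369 carry such a symbol. Of these, 271 stayed below the level, and 4 that reached it (Slc4a1, Slc7a11, Slc40a1 and Slc11a1) were left out by name. The rule reads all 6 libraries, so the members' levels, their day of highest mean and the numbers of members that changed are descriptions of genes chosen on the same values. On exactly 1 day the level was reached by 49 members, of which 10 reached it at day 0, 12 at day 4 and 27 at day 7, and such a member had to be high on that day. Another 28 members reached it on 2 days and 17 on all 3. Slc25a38 and Slc35e4 were among the members nearest the level, and their lower library on their best day stood at 10.1 and 10.4 RPKM. Slc35e2, Slc35a2 and Slc20a1 fell just short of it, at 9.51, 9.60 and 9.73 RPKM.

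RNA-seq was carried out on marrow of male C57BL/6J mice at 3 stages of dendritic cell culture, with 2 libraries per stage. Day 0 is fresh bone marrow (libraries II and III). Day 4 (libraries I and II, labelled common myeloid progenitors, CMP) and day 7 (libraries III and IV, labelled bone marrow derived dendritic cells, BMDC) are marrow grown in medium with supernatant of a transfected SP2/0 line that secretes Flt3 ligand (Flt3L), a growth factor under which dendritic cells develop from marrow. All live cells of the dish were taken at days 4 and 7, so the later labels name a stage and not a sorted cell type. The animals carry no stated allele or transgene, the labels do not say which libraries share an animal or a dish, and p-values below measure the spread between these libraries, which may be technical.

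Solute carriers are membrane proteins that move small molecules and ions without burning ATP directly, by letting a substrate run down its gradient or by coupling it to a second ion or solute. Families are numbered by sequence: family 2 carries hexoses, family 7 pairs with family 3 to exchange amino acids, family 16 carries monocarboxylates such as lactate, family 25 sits mostly in the inner mitochondrial membrane, and families 30 and 39 move zinc out of and into the cytosol. In blood cells they are known for red cell iron supply, for the glucose uptake and lactate release of glycolytic myeloid cells, and for the peptide, amino acid and heme exits of the lysosome in cells that digest what they take up.

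The libraries differed widely in depth, from 157797 and 322837 reads in genes at day 0 through 1365635 and 3852628 on day 4 up to 10951745 and 16149088 on day 7. At day 0 the median member rested on 10 reads in library II and 7 in library III, and 63 of the 94 members had fewer than 10 reads in 1 of those libraries. The median member had 60 and 184.5 reads at day 4, then 950 and 547.5 at day 7. Genes of olfactory, vomeronasal and trace amine receptors, 1455 in all, which marrow is not known to use, took 1.53% and 1.44% of the reads at day 0 (exact 95% binomial intervals 1.49% to 1.57% and 1.39% to 1.504%), 0.762% and 0.149% at day 4, then 0.00391% and 0.00421% at day 7. These intervals cover counting error only. Of those receptor genes 21 passed the 10 RPKM rule at day 0, 6 at day 4 and 0 at day 7, against 40, 54 and 62 of the 94 members. The part of this background in the members' levels on the earlier days was not tested.

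**Figure D1:**
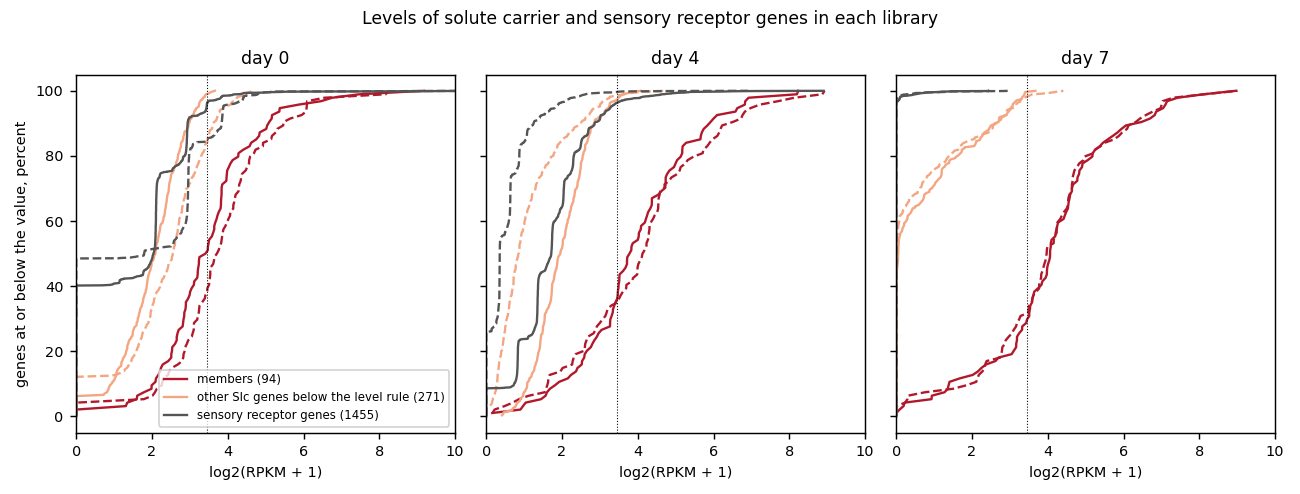
Cumulative share of genes (vertical axis, percent) at or below each level (horizontal axis, log2 of RPKM + 1) at day 0, day 4 and day 7, for the 94 members (red), the 271 Slc genes below the level rule (orange) and 1455 sensory receptor genes (grey). Solid lines are libraries II, I and III of the 3 days, dashed lines libraries III, II and IV, and the dotted line marks 10 RPKM; the receptor genes lie well above 0 at day 0 and at 0 for most genes at day 7.

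Marker genes changed with the days as a whole. The summed level of 8 erythroid markers was 1046 and 908 RPKM at day 0, 119 and 138 at day 4, then 0.142 and 0.783 at day 7, with 7 and 5 of the 8 at 0 in the day 7 libraries. All 8 fell from day 0 to day 4 (limma, as below). The 7 neutrophil markers found summed to 52032 and 6470 RPKM at day 0, 36222 and 27884 at day 4, then 156 and 154 at day 7, and all 7 fell from day 4 to day 7. Basophil and mast cell markers, 6 in all, summed to 157 and 78.8, then 545 and 908, then 1.41 and 0 RPKM, with 2 called higher at day 4 and 6 called lower at day 7. Macrophage markers summed to 106 and 91.7 RPKM at day 0, 56.0 and 50.3 at day 4, then 9856 and 10323 at day 7, where 7 of 8 had risen. The 8 conventional dendritic cell markers summed to 43.3 and 61.2 RPKM at day 7 (36.0 and 52.7 at day 0, 45.2 and 15.1 at day 4). Of genes that define the labels, Kit, the stem cell factor receptor of progenitors, stood at 8.34 and 18.1 RPKM at day 4 against 10.6 and 21.0 at day 0. At day 7 the genes known from dendritic cells went both ways. Itgax, the integrin CD11c of dendritic cells and some macrophages, was at 24.7 and 25.9 RPKM (4.16 and 0 at day 0) and was higher than in fresh marrow (3.53 ± 0.79, adjusted p = 0.0148). H2-Aa and Cd74, which serve antigen presentation on MHC class II and are also expressed by B cells and activated macrophages, were at 268 and 258 and at 1814 and 1932 RPKM, and both were higher than at day 0 (3.71 ± 0.76, adjusted p = 0.0109 and 2.39 ± 0.82, adjusted p = 0.0471). Zbtb46, a conventional dendritic cell factor, was at 0.0288 and 0.0283 RPKM and lower (-2.12 ± 0.72, adjusted p = 0.0462), as were Flt3 and Xcr1, so that 1 of the 8 listed dendritic cell markers was called higher and 3 lower. B cell markers (6 genes) fell in 2 cases from day 4 to day 7, and of 5 plasmacytoid dendritic cell markers Bst2 rose. In RNA from whole dishes, fewer cells of a type and less RNA per cell cannot be told apart, and the part of these shifts in the members' changes below was not tested.

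Of the 94 members, 15 had their highest mean at day 0, 32 at day 4 and 47 at day 7. These are 16.0%, 34.0% and 50% of the members, beside 20.5%, 32.6% and 46.9% of the 5946 other genes that met the same level rule. Both libraries of the highest day lay above all 4 other libraries for 9 members at day 0, 23 at day 4 and 38 at day 7. Over all genes of the table such a separation held for 24.7%, 11.2% and 12.3%, and over the other genes at the level for 13.3%, 22.3% and 37.8%. The map of levels shows the 3 patterns side by side within each substrate group.

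**Figure D2:**
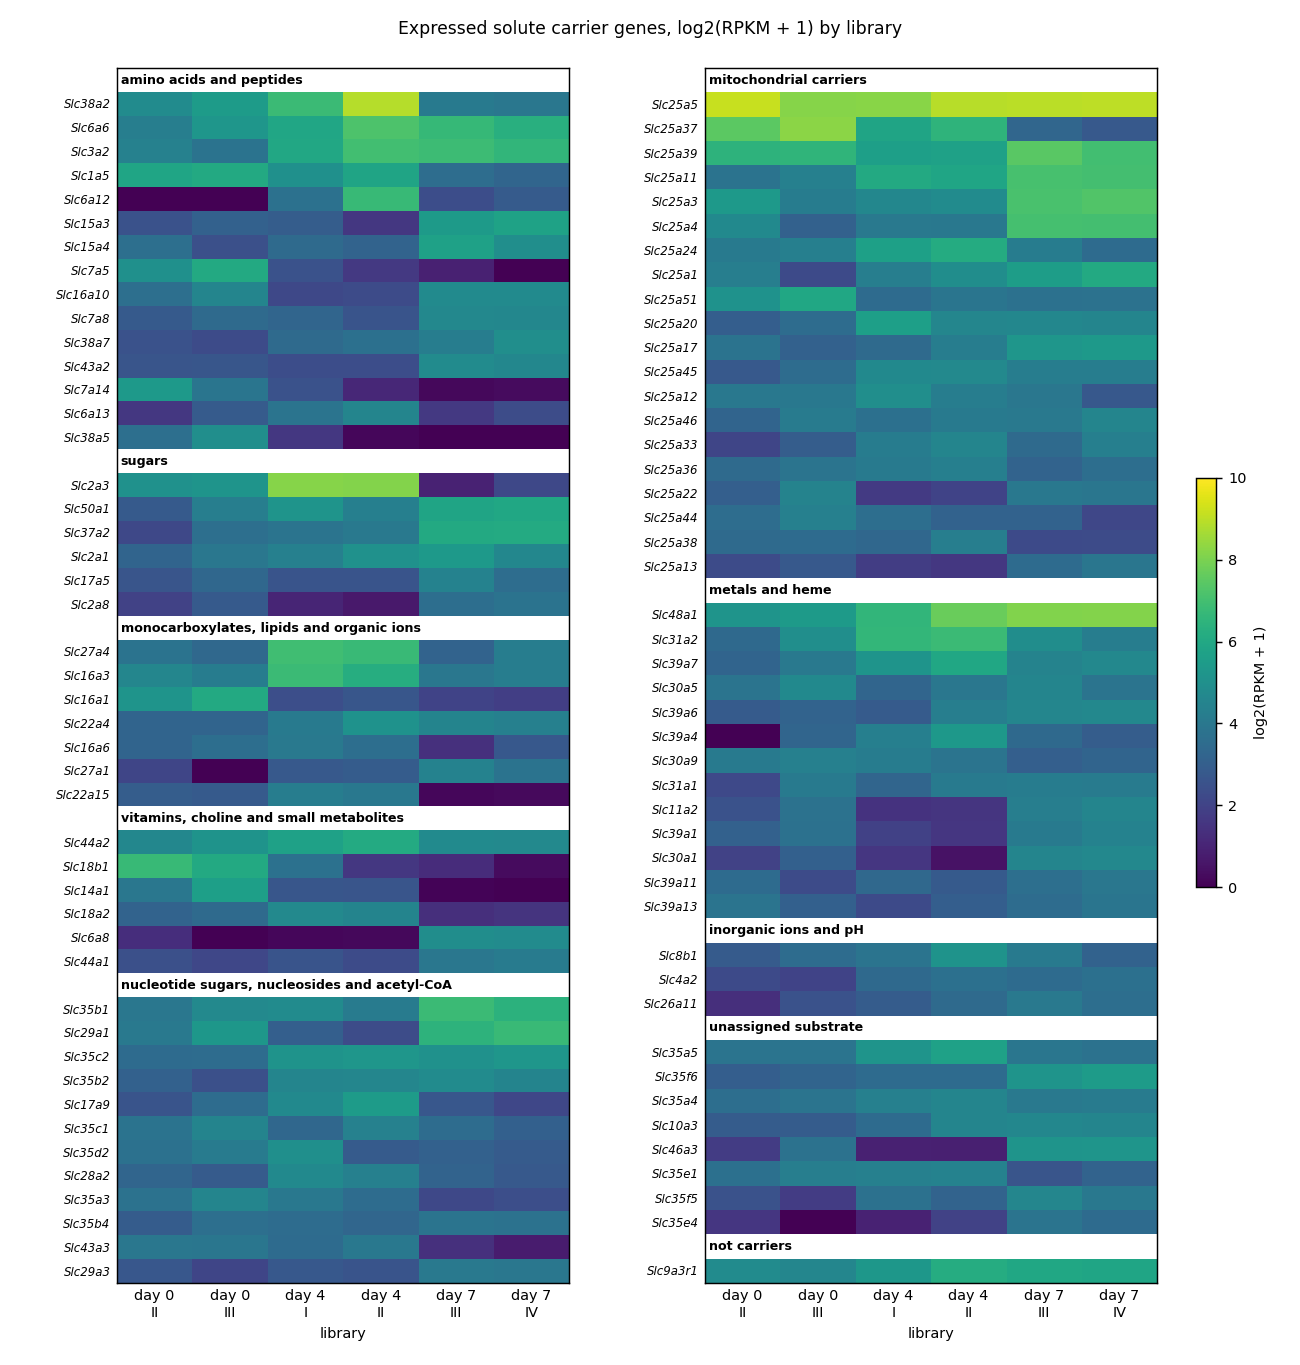
Level of 91 of the 94 members (rows, grouped by substrate and ordered by mean level) in each of the 6 libraries (columns), as colour on a log2(RPKM + 1) scale from 0 (dark) to 10 (yellow). Slc25a5 is high in all libraries, Slc2a3 and Slc38a2 are brightest at day 4, and Slc25a37 and Slc7a5 darken from day 0 to day 7.

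Changes between days were tested with limma on log2(RPKM + 1) over 19279 genes, with p-values adjusted over all of them and a call at an adjusted p under 0.05. From day 0 to day 4, 13 members rose and 6 fell, beside 3.66% and 1.92% of all genes tested (5.58% in either direction) and 10.9% and 4.52% of the other genes at the level. From day 4 to day 7, 21 rose and 17 fell (all genes 5.85% and 6.75%, 12.6% in either direction, others at the level 17.6% and 15.7%). Between day 0 and day 7, 36 were higher at day 7 and 14 lower (all genes 11.3% and 29.3%, 40.6% in either direction, others at the level 34.1% and 17.5%). The shares of members are near those of other genes chosen by the same level, and since the choice used these libraries nothing further is read from them. In all, 68 members were called in at least 1 comparison and 26 in none. The matching share of other genes is not given here, so nothing is read from these counts. Comparisons that share a day share its libraries.

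The median log2 change of the members was 0.41, 0.08 and 0.88 in the order of those comparisons, beside 0.41, 0.15 and 0.61 for the other genes at the level and -0.40, -0.81 and -1.14 for all genes tested. Quantile normalization brought the medians of all genes to -0.04, 0.04 and -0.01 and those of the members to 0.63, -0.04 and 0.83, so the sign of the small day 4 to day 7 median depends on the scaling. Placing Slc6a12 and Slc38a5, which had no read on 1 day, at their bounds left the 3 member medians at 0.41, 0.08 and 0.88. Among the 17 members at the level on all 3 days, 7 rose and 1 fell by day 4, 3 rose and 4 fell from day 4 to day 7, and 8 were higher and 1 lower at day 7 than at day 0. Of the 1826 other genes at the level on all 3 days, 14.7% rose and 1.53% fell by day 4, 16.5% rose and 9.53% fell from day 4 to day 7, and 37.7% were higher and 4.44% lower at day 7 than at day 0.

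Calls that involve day 4 depended on having both of its libraries. Without day 4 library I, 0 members and 0 of all genes were called by limma from day 0 to day 4 and from day 4 to day 7 (43 and 43 members at an unadjusted p under 0.05). Without library II the counts were again 0 and 0 (30 and 50 members unadjusted), while voom on the recovered reads of all libraries called 5 and 61. All 19 members called from day 0 to day 4 kept their sign without library I and without library II. So did all 38 called from day 4 to day 7. In each of them both day 4 libraries lay on the same side of both libraries of the other day. Leaving 1 out therefore could not change the sign, and nothing is read from it. The median log2 change of these members was then 1.04 and 0.961 times the value from all libraries at the first step. At the second step it was 1.03 and 0.974 times. For each gene the values without library I and without library II average to the full one, so these medians had to mirror each other. Leaving out day 7 library III or IV gave 9 and 9 called members from day 0 to day 4, 17 and 12 from day 4 to day 7, and 21 and 20 between day 0 and day 7. Leaving out day 0 library II or III gave 39 and 34, 57 and 57, and 56 and 59. Of 84 calls of named members, 0 reversed in sign in any of 16 settings. The libraries of the days compared did not overlap in these calls, so a left-out library or another pseudocount could not reverse them. The 0 is therefore not read as support. In each setting 8 calls held: the day 7 against day 0 changes of Slc2a3, Slc37a2, Slc6a8, Slc1a5, Slc25a37, Slc14a1, Slc7a14 and Slc38a5.

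**Figure D3:**
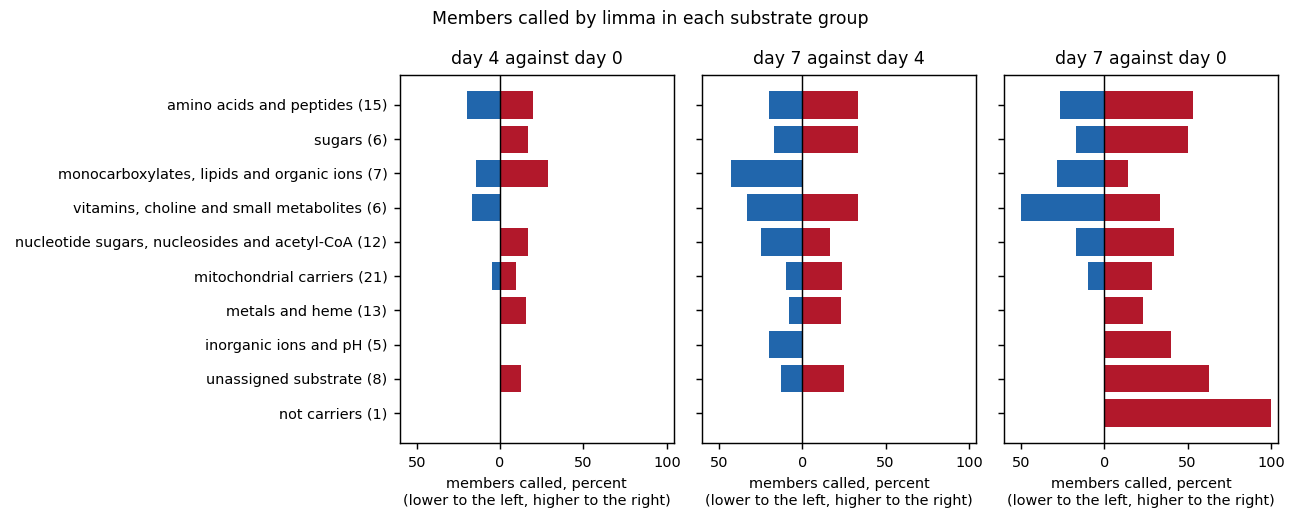
Share of members (horizontal axis, percent) called lower (blue, to the left) or higher (red, to the right) by limma in each substrate group, with the number of members in brackets, for the 3 comparisons of days. Groups hold 1 to 21 members, so 1 call can be a large share. The group of genes that are not carriers holds Slc9a3r1 alone, which makes the full bar at day 7 against day 0. Slc3a2, a heavy chain that partners carriers, is counted with the amino acid carriers.

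Of the sugar carriers, 6 members, 5 had their highest mean at day 7 and Slc2a3 at day 4. From day 4 to day 7 limma called 2 higher and 1 lower (beside 17.6% and 15.7% of the other genes at the level). Slc2a3, the high-affinity glucose transporter GLUT3, stood at 31.9 and 34.9 RPKM (day 0), 293 and 279.7 (day 4) and 0.916 and 3.52 (day 7). It was high in both day 4 libraries and nearly gone at day 7, with no overlap between any of the days. Slc2a3 rose from day 0 to day 4 (log2 change ± SE 3.06 ± 0.46, adjusted p = 0.0145). It fell from day 4 to day 7 (-6.61 ± 0.46, adjusted p = 0.000257), the strongest fall of any member in that comparison. It was also lower at day 7 than in fresh marrow (-3.55 ± 0.46, adjusted p = 0.00205).

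Slc2a1, the widely expressed glucose transporter GLUT1, was at 8.43 and 14.8 RPKM (day 0), 19.6 and 31.99 (day 4) and 40.4 and 23.9 (day 7). Its day 4 and day 7 libraries overlapped, and only the difference between day 7 and day 0 was called (1.39 ± 0.46, adjusted p = 0.0432). GLUT3 and GLUT1 thus had different days of highest mean. Slc37a2, which exchanges sugar phosphates at the endoplasmic reticulum, was at 3.49 and 11.4 RPKM (day 0), 13.2 and 15.7 (day 4) and 65.7 and 69.02 (day 7). Both of its day 7 libraries lay above the other 4, and it rose from day 4 (2.15 ± 0.51, adjusted p = 0.0291) and over the whole culture (3.19 ± 0.51, adjusted p = 0.00456). Slc50a1, a SWEET family sugar carrier, was at 6.06 and 18.6 RPKM (day 0), 35.1 and 18.8 (day 4) and 56.3 and 61.4 (day 7). Only its difference between day 7 and day 0 was called (2.35 ± 0.54, adjusted p = 0.0162). Slc2a8, an intracellular glucose transporter, rose from 1.05 and 0.623 RPKM at day 4 to 11.3 and 13.2 at day 7 (2.85 ± 0.52, adjusted p = 0.0110), after 2.97 and 6.08 RPKM from 2 reads in each library at day 0. Slc17a5, the lysosomal sialic acid exporter, passed in no comparison, with 5.29 and 9.01 RPKM at day 0 and 20.3 and 10.9 at day 7.

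Monocarboxylate, lipid and organic ion carriers, 7 members, held 5 with the highest mean at day 4. Slc16a3, the lactate exporter MCT4, was at 22.8 and 17.2 RPKM (day 0), 112 and 73.7 (day 4) and 14.8 and 17.8 (day 7). The day 4 libraries were both far above the other 4, whose ranges at day 0 and day 7 overlapped. Slc16a3 rose to day 4 (2.14 ± 0.39, adjusted p = 0.0233) and fell again by day 7 (-2.42 ± 0.39, adjusted p = 0.00631). Slc16a1, the related carrier MCT1 that moves lactate in either direction, was at 34.99 and 67.3 RPKM (day 0), 4.30 and 5.40 (day 4) and 3.05 and 2.60 (day 7). It fell at the step where Slc16a3 rose (-3.09 ± 0.45, adjusted p = 0.0139) and was lower at day 7 than at day 0 (-3.70 ± 0.45, adjusted p = 0.00169). Bsg, the chaperone that brings both carriers to the cell surface, was at 154 and 137 RPKM (day 0), 90.3 and 91.6 (day 4) and 205 and 182 (day 7). It was called in no comparison.

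The promoter of Slc16a3 is printed because this gene had one of the largest peaks at day 4, and that of Slc2a1 for comparison with a glucose transporter whose day 4 and day 7 libraries overlapped. Both are the 250 bases before the transcription start, on the plus strand, from RefSeq (GRCm38.p6), chr11:120948817-120949066 for Slc16a3 and chr4:119108495-119108744 for Slc2a1. Capitals mark the core letters of the hypoxia response element: ACGTG in both genes, and in Slc2a1 also CACGC, the reverse complement of GCGTG. Slc16a1, which fell by day 4, holds both cores as well. ACGTG was found in 38.2% of members and 29.9% of the other genes at the level, GCGTG in 58.8% and 55.7%. A link between these letters and the day 4 peak was not tested.
Slc16a3: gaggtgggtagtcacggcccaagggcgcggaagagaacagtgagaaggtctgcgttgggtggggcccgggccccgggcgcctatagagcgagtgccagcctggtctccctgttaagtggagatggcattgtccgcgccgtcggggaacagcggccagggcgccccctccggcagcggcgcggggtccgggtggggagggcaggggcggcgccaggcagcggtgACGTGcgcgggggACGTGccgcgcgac
Slc2a1: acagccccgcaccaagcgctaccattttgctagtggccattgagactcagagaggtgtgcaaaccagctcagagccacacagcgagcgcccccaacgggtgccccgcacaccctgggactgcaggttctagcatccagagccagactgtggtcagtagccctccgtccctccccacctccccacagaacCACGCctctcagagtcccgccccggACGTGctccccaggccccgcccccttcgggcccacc

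Slc27a4, a fatty acid transport protein that also activates long-chain fatty acids, was at 13.1 and 9.49 RPKM (day 0), 120.4 and 108 (day 4) and 8.10 and 18.04 (day 7). Its day 4 libraries stood about level with each other and above the other 4, and it rose (3.24 ± 0.45, adjusted p = 0.0120) and fell again (-3.13 ± 0.45, adjusted p = 0.00386). The related Slc27a1 had 4 and 0 reads at day 0 (3.26 and 0 RPKM), 5.98 and 6.56 RPKM at day 4, then 20.8 and 13.2 at day 7, and was higher at day 7 than at day 0 (3.09 ± 0.69, adjusted p = 0.0148). Slc22a15, an organic ion carrier, went from 17.95 and 14.9 RPKM at day 4 to 0.142 and 0.176 at day 7 (-3.91 ± 0.47, adjusted p = 0.00179), below its 6.73 and 6.12 RPKM of fresh marrow (-2.68 ± 0.47, adjusted p = 0.00642). Slc22a4, the carrier of the antioxidant ergothioneine, had 8.22 and 8.41 RPKM at day 0, 15.9 and 33.4 at day 4, then 22.1 and 19.7 at day 7 and passed in no comparison. Slc16a6, a further family 16 member, did not pass either, with 15.3 and 11.2 RPKM at day 4, then 1.65 and 5.83 at day 7. Neutrophil, basophil and mast cell marker sums, which were also high at day 4 and low at day 7, are given above, and their part in these peaks was not tested.

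**Figure D4:**
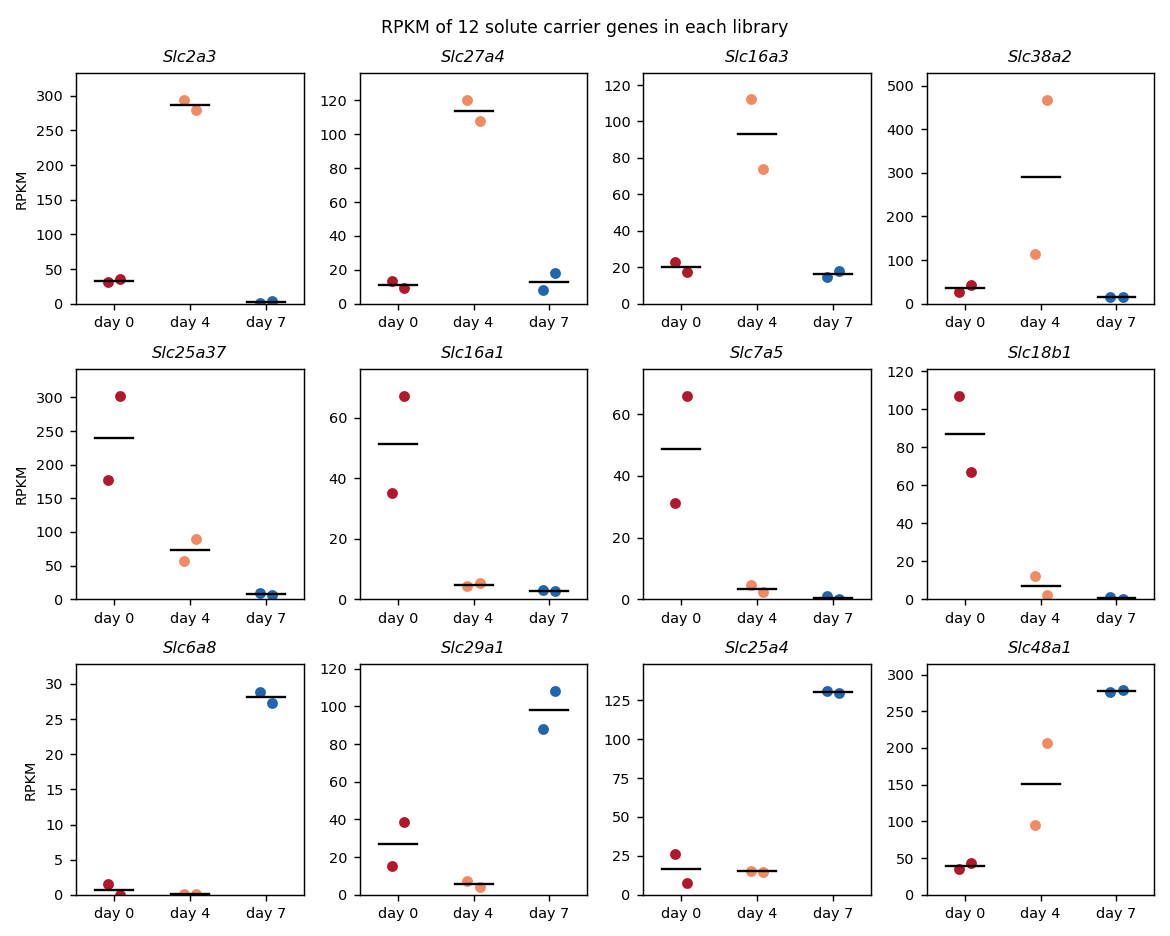
RPKM (vertical axis, linear and starting at 0) of 12 members in each library (points) at day 0, day 4 and day 7, with the mean of the 2 libraries of a day as a bar. The upper row peaks at day 4 (Slc2a3 at 293 and 279.7 RPKM), the middle row is highest at day 0 (Slc25a37 at 177 and 303), and the lower row is highest at day 7 (Slc48a1 at 276 and 279).

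Amino acid and peptide carriers, 15 members, split over the days, with the highest mean at day 0 for 4, at day 4 for 4 and at day 7 for 7. By day 4, 3 rose and 3 fell (beside 10.9% and 4.52% of the other genes at the level). From day 4 to day 7, 5 rose and 3 fell (17.6% and 15.7%). At day 7 against day 0, 8 were higher and 4 lower (34.1% and 17.5%). Slc3a2, the CD98 heavy chain that brings family 7 exchangers to the surface, was at 20.2 and 13.2 RPKM (day 0), 63.03 and 125 (day 4) and 115 and 95.2 (day 7). It rose by day 4 (2.37 ± 0.45, adjusted p = 0.0267), and its day 4 and day 7 libraries overlapped. Slc7a5, the light chain LAT1 that pairs with it to import large neutral amino acids, was at 31.3 and 65.9 RPKM (day 0), 4.73 and 2.19 (day 4) and 0.905 and 0 (day 7). It fell by day 4 (-3.44 ± 0.59, adjusted p = 0.0207) and ended lower at day 7 than at day 0 (-5.07 ± 0.59, adjusted p = 0.00136). Slc7a8, the alternative light chain LAT2, was at 6.12 and 10.01 RPKM (day 0), 8.67 and 5.07 (day 4) and 24.4 and 23.6 (day 7). Both day 7 libraries lay above the other 4. It rose from day 4 (1.71 ± 0.44, adjusted p = 0.0400) and over the culture (1.498 ± 0.44, adjusted p = 0.0299). On the RPKM scale, which is per length, Slc7a5 was thus above Slc7a8 in both day 0 libraries and below it in the day 4 and day 7 libraries.

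Slc43a2, which exports branched-chain and aromatic amino acids without a partner chain, was at 5.29 and 5.41 RPKM (day 0), 4.17 and 4.13 (day 4) and 27.5 and 23.8 (day 7). It was not called by day 4 and rose after it (2.37 ± 0.39, adjusted p = 0.00749). Slc16a10, the aromatic amino acid carrier TAT1, was at 11.5 and 22.6 RPKM (day 0), 3.45 and 3.81 (day 4) and 26.4 and 26.4 (day 7). It was the only member called lower and then higher (-1.89 ± 0.43, adjusted p = 0.0462 by day 4, then 2.57 ± 0.43, adjusted p = 0.00797). Day 7 against day 0 was not called (0.67 ± 0.43, adjusted p = 0.237). The share of other genes called lower and then higher is not given here.

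Slc38a2, the sodium-coupled carrier SNAT2 for small neutral amino acids such as glutamine and alanine, was at 27.7 and 43.5 RPKM (day 0), 113 and 467 (day 4) and 15.9 and 14.7 (day 7). The day 4 libraries differed from each other by several fold, yet both lay above the other 4. It rose (2.69 ± 0.63, adjusted p = 0.0477) and fell (-3.83 ± 0.63, adjusted p = 0.00700). Slc38a5, the glutamine carrier SNAT5, was at 11.5 and 29.4 RPKM (day 0), 2.04 and 0.120 (day 4) and 0 and 0 (day 7), with 0 reads in both day 7 libraries. Pooled over the libraries of a day it was at least 338-fold lower at day 7 than at day 0, taking 3 reads over the day 7 group as the floor. This limit ran from 137-fold without day 7 library III and 202-fold without day 7 library IV to 224-fold without day 0 library III and 572-fold without day 0 library II. It had fallen by day 4 (-3.40 ± 0.71, adjusted p = 0.0352). Slc1a5, the glutamine carrier ASCT2, was at 57.3 and 66.6 RPKM (day 0), 31.9 and 55.9 (day 4) and 11.02 and 8.71 (day 7). It fell from day 4 to day 7 (-2.001 ± 0.40, adjusted p = 0.0160) and was lower than in fresh marrow (-2.54 ± 0.40, adjusted p = 0.00458). Slc38a2, Slc38a5 and Slc1a5 thus had their lowest mean at day 7. They were set side by side after their values were seen and are not a full list of glutamine carriers. Slc38a1, a family 38 gene below the level, had its lowest mean at day 4 (7.81, 2.70 and 5.91 RPKM at days 0, 4 and 7).

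Of 4 amino acid carriers of the lysosome, 3 had their highest mean at day 7, beside 46.9% of the other genes at the level. These 4 were grouped by function after their values were seen. Slc15a3, which exports histidine and short peptides from the lysosome, was at 4.79 and 7.62 RPKM (day 0), 6.79 and 2.05 (day 4) and 42.9 and 52.9 (day 7). Slc15a3 rose from day 4 (3.32 ± 0.53, adjusted p = 0.00610). Slc15a4, its relative that supports signalling by endosomal Toll-like receptors, was at 11.7 and 4.36 RPKM (day 0), 10.1 and 8.04 (day 4) and 51.6 and 30.1 (day 7). It also rose (2.02 ± 0.51, adjusted p = 0.0392). Slc38a7, a lysosomal glutamine exporter, had 4.69 and 3.83 RPKM at day 0, 9.97 and 11.9 at day 4, then 17.7 and 29.7 at day 7, called only across the whole culture (2.19 ± 0.42, adjusted p = 0.00921). Slc7a14, a lysosomal family 7 protein, was the exception, at 40.1 and 13.8 RPKM (day 0), 4.77 and 1.18 (day 4) and 0.165 and 0.234 (day 7). It was lower at day 7 than at day 0 (-4.36 ± 0.69, adjusted p = 0.00464). Macrophage markers, as summed above, rose at the same step, and their part here was not tested.

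Family 6 among the amino acid carriers moves osmolytes and neurotransmitters. Slc6a12, the betaine carrier BGT1, was at 0 and 0 RPKM (day 0), 12.2 and 105 (day 4) and 4.15 and 6.40 (day 7). It had no read in either day 0 library, and its day 4 libraries were far apart. Pooled over a day, it was at least 33.3-fold higher at day 4 than at day 0, taking 3 reads over the day 0 group as the floor. Library II of day 4 held 1043 of the 1086 reads, and without it the limit was 5.04-fold. It was 10.9-fold without day 0 library II and 22.4-fold without day 0 library III. Slc6a13, a GABA carrier of the same family, fell from 13.6 and 22.4 RPKM at day 4 to 2.19 and 4.05 at day 7 (-2.20 ± 0.57, adjusted p = 0.0420). Slc6a6, the taurine carrier, was at 18.4 and 37.5 RPKM (day 0), 59.5 and 148 (day 4) and 103 and 78.97 (day 7). It was called only between day 0 and day 7 (1.74 ± 0.54, adjusted p = 0.0356).

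Mitochondrial carriers were the largest group, with 21 members, of which 3 were highest at day 0, 8 at day 4 and 10 at day 7. By day 4, 2 rose and 1 fell (beside 10.9% and 4.52% of the other genes at the level). From day 4 to day 7, 5 rose and 2 fell (17.6% and 15.7%). At day 7 against day 0, 6 were higher and 2 lower (34.1% and 17.5%). Slc25a5, the ADP/ATP carrier ANT2, was the member with the highest level over the 6 libraries, at 578 and 287 RPKM (day 0), 299.9 and 487 (day 4) and 498 and 514 (day 7). It was called in no comparison. Slc25a4, its close paralog ANT1, was at 25.9 and 7.58 RPKM (day 0), 15.3 and 14.9 (day 4) and 131 and 129.7 (day 7). Both day 7 libraries of Slc25a4 lay above the other 4. It rose from day 4 (3.03 ± 0.53, adjusted p = 0.00934) and over the culture (3.11 ± 0.53, adjusted p = 0.00602). How reads that fit both genes were assigned is not given in the sources used here, so the split between these paralogs is uncertain. Slc25a3, the phosphate carrier that feeds ATP synthase, was at 40.4 and 17.5 RPKM (day 0), 23.5 and 27.3 (day 4) and 141 and 157 (day 7). It rose at the same step (2.51 ± 0.45, adjusted p = 0.0103).

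Carriers of Krebs cycle acids were led by Slc25a11, the oxoglutarate and malate carrier, at 13.2 and 19.3 RPKM (day 0), 67.2 and 58.5 (day 4) and 137 and 127 (day 7). The days did not overlap, and Slc25a11 rose by day 4 (1.91 ± 0.37, adjusted p = 0.0284) and was higher at day 7 than at day 0 (2.97 ± 0.37, adjusted p = 0.00178), while the step from day 4 to day 7 did not pass (1.06 ± 0.37, adjusted p = 0.102). Slc25a1, the citrate exporter that supplies acetyl units for lipid synthesis, was at 18.5 and 3.78 RPKM (day 0), 18.3 and 28.6 (day 4) and 46.98 and 67.1 (day 7). It was higher at day 7 than at day 0 (2.57 ± 0.64, adjusted p = 0.0194), where library III held 1 read. Slc25a22, a glutamate carrier, and Slc25a13, an aspartate and glutamate exchanger, both rose from day 4 to day 7 (2.12 ± 0.54, adjusted p = 0.0376 and 1.99 ± 0.47, adjusted p = 0.0290). Neither was called at day 7 against day 0 (0.21 ± 0.54, adjusted p = 0.754 and 1.17 ± 0.47, adjusted p = 0.0742).

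Slc25a37, mitoferrin, which brings iron into mitochondria for heme synthesis in red cell precursors, was at 177 and 303 RPKM (day 0), 56.2 and 89.96 (day 4) and 8.98 and 5.96 (day 7). The 3 days did not overlap. It fell from day 4 to day 7 (-3.11 ± 0.44, adjusted p = 0.00386) and over the culture (-4.80 ± 0.44, adjusted p = 0.000571), while the step from day 0 to day 4 missed the threshold (-1.69 ± 0.44, adjusted p = 0.0645). All 8 erythroid markers fell as well, and their part in this change was not tested. Slc25a39, the mitochondrial glutathione carrier, had 87.1 and 92.8 RPKM at day 0, 49.3 and 52.1 at day 4, then 171 and 125 at day 7, and rose at the last step (1.51 ± 0.38, adjusted p = 0.0357). Slc25a51, the mitochondrial NAD carrier, was at 33.2 and 60.8 RPKM (day 0), 10.4 and 13.7 (day 4) and 12.4 and 12.7 (day 7). It fell by day 4 (-1.83 ± 0.42, adjusted p = 0.0457). Slc25a24, an ATP-magnesium and phosphate exchanger that responds to calcium, peaked at day 4 with 50.6 and 69.97 RPKM, against 16.5 and 18.7 at day 0 and 17.5 and 10.3 at day 7 (rise 1.70 ± 0.40, adjusted p = 0.0494, fall -2.07 ± 0.40, adjusted p = 0.0141). Slc25a20, the carnitine carrier for fatty acid oxidation, and Slc25a17, a peroxisomal cofactor carrier, were higher at day 7 than at day 0 (1.32 ± 0.46, adjusted p = 0.0498 and 1.86 ± 0.44, adjusted p = 0.0166). Slc25a12, Slc25a33, Slc25a36, Slc25a38, Slc25a44, Slc25a45 and Slc25a46 were called in no comparison.

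Metal and heme carriers, 13 members, had 8 with the highest mean at day 7. By day 4, 2 rose and 0 fell (beside 10.9% and 4.52% of the other genes at the level). From day 4 to day 7, 3 rose and 1 fell (17.6% and 15.7%). At day 7 against day 0, 3 were higher and 0 lower (34.1% and 17.5%). Slc48a1, which lets heme leave the endolysosome, was at 34.7 and 43.1 RPKM (day 0), 94.5 and 207 (day 4) and 276 and 279 (day 7). Its level differed between all 3 days without overlap, and it was higher at day 7 than at day 0 (2.81 ± 0.47, adjusted p = 0.00556), while neither single step passed (1.83 ± 0.47, adjusted p = 0.0606 and 0.98 ± 0.47, adjusted p = 0.203). Slc31a2, a copper carrier of endosomes, was at 9.62 and 29.5 RPKM (day 0), 97.8 and 112 (day 4) and 29.1 and 17.8 (day 7). It rose (2.56 ± 0.54, adjusted p = 0.0352) and then fell (-2.15 ± 0.54, adjusted p = 0.0357). Its plasma membrane relative Slc31a1, the main copper importer, ranged from 3.65 RPKM in day 0 library II to 17.3 in day 7 library III and was called in no comparison. Slc11a2, the iron importer DMT1, was at 4.69 and 12.8 RPKM (day 0), 1.73 and 1.92 (day 4) and 18.3 and 22.1 (day 7). Slc11a2 rose from day 4 to day 7 (2.90 ± 0.52, adjusted p = 0.0101).

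Zinc carriers made up 9 of the metal group. Slc30a1, the zinc exporter ZnT1 of the plasma membrane, was at 2.96 and 7.27 RPKM (day 0), 1.96 and 0.397 (day 4) and 22.5 and 24.6 (day 7). Both day 7 libraries lay above the other 4, and it rose from day 4 (3.59 ± 0.57, adjusted p = 0.00619) and over the culture (2.10 ± 0.57, adjusted p = 0.0248). Slc39a1, the zinc importer ZIP1, was at 7.60 and 12.1 RPKM (day 0), 2.80 and 1.98 (day 4) and 16.1 and 20.4 (day 7). It rose at the same step (2.51 ± 0.44, adjusted p = 0.00952), so an exporter and an importer of the cell surface both rose. Slc39a7, which releases zinc from the endoplasmic reticulum, had 8.44 and 15.7 RPKM at day 0, 35.4 and 61.6 at day 4, then 21.4 and 24.2 at day 7, and rose by day 4 (1.93 ± 0.45, adjusted p = 0.0467). Slc39a6, the importer ZIP6, was higher at day 7 than at day 0 (1.58 ± 0.52, adjusted p = 0.0411). Slc39a4, the importer ZIP4, had 19.1 and 38.8 RPKM at day 4. At day 0 it had 0 and 3 reads, and the pooled level at day 4 was 12.0045-fold higher (exact 95% interval 4.08 to 58.5). This ratio was 6.80 without day 4 library II, 3.94 without day 0 library II and, against 3 reads as the floor, at least 8.06-fold without day 0 library III. It was not called by limma in any comparison. Slc30a5, Slc30a9, Slc39a11 and Slc39a13 were called in none either.

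Mt1, a metallothionein that binds zinc and a known target of the metal-sensing factor encoded by Mtf1, was at 17.8 and 6.05 RPKM (day 0), 5.60 and 12.4 (day 4) and 284 and 317 (day 7). It was higher at day 7 than at day 0 (4.71 ± 0.55, adjusted p = 0.00136), and its rise from day 4 to day 7 was called too (adjusted p = 0.00124). Mtf1 itself was at 4.39 and 4.49 RPKM (day 0), 5.70 and 7.87 (day 4) and 4.12 and 6.06 (day 7). It did not pass, and Mt2 was at 5.57 and 0 RPKM (day 0), 1.32 and 0.467 (day 4) and 14.4 and 8.05 (day 7), also not called. Because Slc30a1 and Mt1 rose at the same step, the promoter of Slc30a1 is printed, the 250 bases before its start on the plus strand, chr1:191906531-191906780 (RefSeq, GRCm38.p6). Capitals mark the reverse complement of TGCACNC, a core of the metal response element. Slc31a2, which fell from day 4 to day 7, holds this core as well. It was found in 22.1% of members and 13.6% of the other genes at the level. A link between these letters and the rise of Slc30a1 was not tested.
Slc30a1: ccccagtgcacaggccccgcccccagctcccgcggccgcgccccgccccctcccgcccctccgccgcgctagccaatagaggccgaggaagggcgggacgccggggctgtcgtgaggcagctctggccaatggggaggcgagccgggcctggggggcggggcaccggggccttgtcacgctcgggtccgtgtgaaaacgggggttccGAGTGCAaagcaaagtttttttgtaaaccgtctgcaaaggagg

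Nucleotide sugar, nucleoside and acetyl-CoA carriers, 12 members, act mostly in the Golgi, where family 35 supplies sugar donors for glycans. Slc29a1, the nucleoside carrier ENT1 of the plasma membrane, was at 15.3 and 38.6 RPKM (day 0), 7.24 and 3.95 (day 4) and 87.8 and 108 (day 7). The day 7 libraries lay well above all others, and it rose from day 4 (3.95 ± 0.50, adjusted p = 0.00240) and over the culture (1.95 ± 0.50, adjusted p = 0.0216). Slc28a2, a sodium-coupled nucleoside importer, went the other way from day 4 to day 7, from 25.6 and 19.3 to 8.10 and 5.92 RPKM (-1.55 ± 0.41, adjusted p = 0.0441). Slc43a3, a purine base carrier, fell from 10.4 and 15.2 to 1.60 and 0.694 RPKM at the same step (-2.69 ± 0.46, adjusted p = 0.00826). Slc29a3, the lysosomal nucleoside carrier ENT3, rose over the culture from 5.51 and 3.22 to 15.6 and 14.5 RPKM (1.61 ± 0.44, adjusted p = 0.0245). Slc17a9, which loads ATP into vesicles, had 5.10 and 10.4 RPKM at day 0, 25.6 and 43.4 at day 4, then 5.48 and 3.42 at day 7, and its fall after day 4 was called (-2.68 ± 0.49, adjusted p = 0.0113).

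In family 35, Slc35b1, a nucleotide exchanger of the endoplasmic reticulum, was at 14.6 and 24.9 RPKM (day 0), 27.6 and 17.1 (day 4) and 112 and 85.4 (day 7). Slc35b1 rose from day 4 (2.12 ± 0.43, adjusted p = 0.0162). Slc35b2, which brings the sulfate donor PAPS into the Golgi, rose by day 4 from 7.66 and 4.48 to 22.2 and 22.8 RPKM (1.77 ± 0.40, adjusted p = 0.0449) and stood at 27.4 and 21.6 at day 7. Slc35c2 did likewise, from 10.4 and 10.6 to 34.1 and 37.1 and then 32.2 and 36.99 RPKM (1.67 ± 0.35, adjusted p = 0.0346). Slc35a3, a carrier of UDP-N-acetylglucosamine, was lower at day 7 than at day 0 (-1.89 ± 0.45, adjusted p = 0.0173). Slc35b4, Slc35c1 and Slc35d2 were called in no comparison.

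Vitamin, choline and small metabolite carriers, 6 members, were split evenly over the days of highest mean, 2 on each. Slc6a8, the creatine importer, was at 1.48 and 0 RPKM (day 0), 0.116 and 0.165 (day 4) and 28.9 and 27.4 (day 7). It rested on 3 and 0 reads at day 0, and its day 7 libraries stood apart from all others. It rose from day 4 to day 7 (4.68 ± 0.61, adjusted p = 0.00255), and pooled over a day it was 28.5-fold higher at day 7 than at day 0 (exact 95% interval 9.76 to 138, counting error only). That ratio was 19.2 without day 0 library III, and without library II, which held all 3 reads, it was at least 9.37-fold against 3 reads as the floor. Slc18b1, a polyamine carrier of vesicles, was at 107 and 67.01 RPKM (day 0), 12.1 and 2.10 (day 4) and 1.42 and 0.225 (day 7). It fell by day 4 (-3.75 ± 0.71, adjusted p = 0.0267) and ended lower than in fresh marrow (-5.64 ± 0.71, adjusted p = 0.00185). Slc14a1, the urea carrier that bears the Kidd blood group on red cells, was at 14.7 and 49.2 RPKM (day 0), 5.32 and 5.26 (day 4) and 0.0620 and 0 (day 7). It fell from day 4 to day 7 (-2.61 ± 0.61, adjusted p = 0.0287), a step at which 5 of the 8 erythroid markers fell.

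Slc18a2, which loads histamine and other monoamines into granules, was at 8.14 and 10.00 RPKM (day 0), 25.4 and 21.8 (day 4) and 1.56 and 1.82 (day 7). It fell from day 4 to day 7 (-3.19 ± 0.41, adjusted p = 0.00245), the step at which all 6 basophil and mast cell markers fell, and the part of those cells was not tested. Slc44a1, a choline carrier, rose from 5.06 and 3.86 to 14.7 and 16.8 RPKM (1.63 ± 0.43, adjusted p = 0.0438). Its relative Slc44a2 was at 52.4 and 67.6 RPKM at day 4, then 26.5 and 25.01 at day 7 and was called in no comparison.

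Among the carriers of inorganic ions and of pH, Slc4a2, an anion exchanger, and Slc26a11, an anion carrier of the lysosome, were higher at day 7 than at day 0 (1.48 ± 0.41, adjusted p = 0.0268 and 1.91 ± 0.53, adjusted p = 0.0262). Slc8b1, the mitochondrial sodium and calcium exchanger, was at 6.22 and 10.6 RPKM (day 0), 13.2 and 34.1 (day 4) and 15.9 and 7.95 (day 7), with library II of day 4 above the rest, and was not called.

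Of 8 members with no substrate assigned here, 3 had their highest mean at day 4 and 5 at day 7, and 5 were called higher at day 7 than at day 0, beside 34.1% of the other genes at the level. Slc46a3, a lysosomal protein, was at 2.45 and 12.5 RPKM (day 0), 0.869 and 0.821 (day 4) and 35.4 and 35.9 (day 7). Slc46a3 rose from day 4 (4.31 ± 0.64, adjusted p = 0.00454). Slc35f6 was at 7.04 and 8.22 RPKM (day 0), 10.2 and 10.4 (day 4) and 35.1 and 44.2 (day 7). It rose at the same step (1.84 ± 0.37, adjusted p = 0.0160). Slc35a5 peaked at day 4 with 35.04 and 51.4 RPKM (rise 1.59 ± 0.37, adjusted p = 0.0487, fall -1.58 ± 0.37, adjusted p = 0.0297). Slc10a3 and Slc35f5 were higher at day 7 than at day 0 (1.70 ± 0.45, adjusted p = 0.0225 and 2.12 ± 0.47, adjusted p = 0.0143). Slc35e4 was higher as well (2.87 ± 0.69, adjusted p = 0.0180), from 2 and 0 reads at day 0. Slc35a4 and Slc35e1 were called in no comparison. Slc9a3r1 carries the prefix but encodes a scaffold protein that binds carriers at the membrane. Its levels were 27.4 and 23.1 RPKM (day 0), 37.7 and 71.7 (day 4) and 60.5 and 57.8 (day 7). It was higher at day 7 than at day 0 (1.201 ± 0.41, adjusted p = 0.0476).

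Rising and then falling calls were shared by 7 members: Slc2a3, Slc16a3, Slc27a4, Slc38a2, Slc31a2, Slc25a24 and Slc35a5. They come from 5 substrate groups and, with Slc35a5, from the members with no substrate assigned. The share of other genes with both calls is not given here, so nothing is read from the count of 7. Counting the ratio of the day 4 mean to the higher of the other 2 means, the most marked of the 32 members highest at day 4 were Slc6a12 (11.1-fold), Slc27a4 (8.73-fold), Slc2a3 (8.57-fold), Slc38a2 (8.15-fold) and Slc16a3 (4.64-fold). In Slc6a12 and Slc38a2 this mean rests largely on library II of day 4, and in the others the 2 libraries were closer.

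Transport genes outside the Slc symbols were followed as a list of pumps, partner proteins and other carriers, of which 29 of 34 were in the table. By day 4, 8 rose and 2 fell (beside 3.66% and 1.92% of all genes tested, 10.9% and 4.52% of others at the level). From day 4 to day 7, 4 rose and 2 fell (all genes 5.85% and 6.75%, others at the level 17.6% and 15.7%). At day 7 against day 0, 10 were higher and 6 lower (all genes 11.3% and 29.3%, others at the level 34.1% and 17.5%). Mpc1, a subunit of the mitochondrial pyruvate carrier, was at 46.5 and 30.1 RPKM (day 0), 170.2 and 159 (day 4) and 336 and 361 (day 7). It rose by day 4 (2.11 ± 0.41, adjusted p = 0.0289). Mpc2, its partner subunit, rose too (1.84 ± 0.38, adjusted p = 0.0338). Atp1b3, a beta subunit of the sodium pump whose gradient drives many carriers, was at 25.4 and 17.3 RPKM (day 0), 129 and 291 (day 4) and 221 and 204 (day 7). It rose by day 4 (3.15 ± 0.48, adjusted p = 0.0154). Tfrc, the transferrin receptor, fell by day 4 from 69.4 and 139.7 to 19.4 and 28.4 RPKM (-2.02 ± 0.44, adjusted p = 0.0397), as did Steap3, the reductase that prepares iron for DMT1 (-3.36 ± 0.46, adjusted p = 0.0120). From day 4 to day 7 Abcg1, a cholesterol exporter, rose (3.84 ± 0.41, adjusted p = 0.00106) and Atp2a3, a calcium pump, fell (-3.58 ± 0.39, adjusted p = 0.00127).

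Genes of the amino acid response, through which cells adjust amino acid carriers to supply, numbered 18. By day 4, 1 rose and 1 fell (beside 3.66% and 1.92% of all genes tested, 10.9% and 4.52% of others at the level). From day 4 to day 7, 3 rose and 0 fell (all genes 5.85% and 6.75%, others at the level 17.6% and 15.7%). At day 7 against day 0, 3 were higher and 4 lower (all genes 11.3% and 29.3%, others at the level 34.1% and 17.5%). Atf4, its central factor, was at 55.7 and 33.1 RPKM (day 0), 35.2 and 96.6 (day 4) and 111 and 71.7 (day 7). It was called in no comparison. Cebpb, a partner factor, was at 24.7 and 80.1 RPKM (day 0), 1.46 and 3.11 (day 4) and 94.5 and 144 (day 7). It fell (-3.84 ± 0.58, adjusted p = 0.0152) and then rose (5.21 ± 0.58, adjusted p = 0.00134). Atf3 rose from day 4 to day 7 (3.15 ± 0.73, adjusted p = 0.0271). Ddit3 was the gene that rose by day 4, from 0 and 1 reads at day 0. Higher at day 7 than at day 0 were Atf3, Atf5 and Ddit3, and lower were Asns, Phgdh, Psat1 and Vldlr.

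Promoter windows were found in RefSeq (GRCm38.p6, 250 bases before to 50 after the start) for 68 of the 94 members, and motifs were counted on both strands. The E-box core CACGTG was present in 15 of 68 members (22.1%), 12.6% of other genes at the level and 8.09% of all 27025 genes, and the longer palindromic E-box of lysosomal genes in 0 of 68, 0.980% and 0.370%. The members with the core include Slc38a7 and Slc25a1 but not Slc16a3. The amino acid response sequence TGATGCAAT was in 0 of 68 (0.125% of the others, 0.222% of all), and the antioxidant response element in Slc35b2 and Slc35e4 (2.94%, beside 3.19% and 3.45%). The metal response cores TGCGCNC and TGCACNC were in 32.4% and 22.1% of members, 30.1% and 13.6% of the others and 17.0% and 14.2% of all. The hypoxia response cores ACGTG and GCGTG, of which the first lies within CACGTG, were in 38.2% and 58.8% of members, 29.9% and 55.7% of the others and 21.8% and 35.2% of all. A match is a run of letters in the window and not a site shown to be used.

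Some members share their gene span with another gene in RefSeq, and whether reads were counted by strand is not given in the sources used here. These include Slc48a1 with Hdac7, Slc16a3 with Csnk1d, Slc25a11 with Rnf167, Slc15a3 with Tmem132a, Slc15a4 with Glt1d1, Slc26a11 with Sgsh and Slc31a1 with Fkbp15, so reads of such a pair may not be told apart where their exons meet.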

How the data were processed

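The members, the substrate groups and the gene lists were chosen with earlier results of these data known. The authors deposited 1 table of RPKM per gene and library with exon lengths, and the submitters' processing notes name TopHat2 2.0.13, SAMtools 1.1 and genome build mm9 without their roles; the sources used here do not give counter, annotation or strand handling. RPKM times length gave whole reads within 6.88e-05 of a read, which gave the depths. Libraries were made from total RNA with a low-input cDNA kit, per the labels' protocols.

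A gene was kept where 2 or more of the 6 libraries reached 1 RPKM. The 19279 genes left were fitted with limma 3.58.1 (R 4.3.3) on log2(RPKM + 1), as 3 group means with a mean-variance trend (residual degrees of freedom 3, median prior ones 5.22). Each gene has 1 spread over all days, so its SE is the same in all 3 comparisons. The days were not equally variable. At days 0, 4 and 7, 25, 16 and 5 of the 94 members differed more than 2-fold in RPKM + 1 between libraries. Two-sided p-values were adjusted over all genes by Benjamini-Hochberg, and a call needed an adjusted p under 0.05. Log2 changes are on the log2(RPKM + 1) scale, which understates the change of low genes. The script was tested on simulated data. Bounds and exact intervals of genes with few reads use reads pooled over a day and cover counting error only. Substrate groups follow the family number, with single genes reassigned from textbook knowledge. Named members were, per group, the 4 highest means and the 3 smallest adjusted p-values; per comparison, up to 10 called members in each direction with the largest change and no overlap of libraries; the 3 genes on either side of the level; and the 5 most marked day 4 peaks. Other members are named in counts or by function, after their values were seen. The choice of Kit, Zbtb46, Itgax, H2-Aa and Cd74 as checks of the labels, of the limits without each library and of the hypoxia response motifs was also made after seeing the data. Alternatives were other pseudocounts, filters, scalings, weights, voom on the recovered reads, reads thinned to 157797 per library, and each library left out. The values of 3 members are not reported here, while counts over the members include them.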

Additional observations from a re-analysis of the deposited data

How the results depend on the processing

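No paired analysis was possible because no 2 days share more than 1 replicate number. The number of members called from day 0 to day 4 was 19, and became 7 with a pseudocount of 0.1, 3 with no filter on low values, 29 with a 5 RPKM filter, 2 without the trend, 0 with library weights (31 at an unadjusted p under 0.05), 5 with voom (1 higher, 4 lower) and 7 after thinning. From day 4 to day 7 it was 38, and became 15 under quantile normalization (7 higher, 8 lower), 24 without the trend, 61 with voom (30 higher, 31 lower) and 9 after thinning (4 higher, 5 lower). Between day 0 and day 7 it was 50, and became 31 under quantile normalization (20 higher, 11 lower), 32 with voom (18 higher, 14 lower) and 16 after thinning (8 higher, 8 lower). With 1 library left out, the lone library of that day was assumed to vary like the other days, and the counts ran from 0 to 39, from 0 to 57 and from 20 to 59. Apart from thinning, which leaves fewer reads, and a stricter filter, which tests fewer genes, the cause was not tested. A level of 5 RPKM gives 156 members and one of 20 RPKM gives 49. Of the 84 calls of named members, thinning lost 59, quantile normalization 38, no filter 32, no trend 28, voom 24, library weights 23 and either changed pseudocount 12 or 4. The day of highest mean was kept by 88 to 93 of the 94 members under each scaling and with each library left out. At day 0 depth limits every value: 21 members had fewer than 3 reads in 1 library.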

Other observations

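Of the 271 Slc genes below the level, 262 entered the tests. From day 4 to day 7, 1 was called higher and 8 lower by limma (beside 5.85% and 6.75% of all genes tested). Between day 0 and day 7, 1 was higher and 98 lower at day 7 (11.3% and 29.3% of all genes tested). Their median level was 3.25 and 4.88 RPKM at day 0, 2.87 and 0.815 at day 4, then 0.0336 and 0 at day 7, where 121 and 148 of the 271 had no read. In the day 0 libraries, which were far shallower, 17 and 33 had none. The 1455 sensory receptor genes also went from a median of 3.11 and 2.46 RPKM at day 0 to 0 and 0 at day 7, and the part of that background in the 98 lower calls was not tested.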
